A study of Mus musculus with 2 samples.

Results

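TRAV1 and TRAV2 are the V genes of the mouse T cell receptor α (TCRα) locus that lie farthest from its J genes. They were followed here through every TCRα clonotype, that is, every assembled chain with a TRAJ gene as its first-listed J gene, whose first-listed V gene was TRAV1 or TRAV2. The rule found 57 clonotypes among 15672 TCRα clonotypes and 19558 clonotypes of both chains. TRAV1 headed 36 of them, 17 in the thymus and 19 in the spleen, and TRAV2 headed 21, 12 in the thymus and 9 in the spleen. Neither gene was listed with a competing V gene in any of the 57 clonotypes, and neither was listed behind another V gene anywhere else.

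The cells were induced T (iT) cells of C57BL/6 origin that developed in iT-B-NDG mice, which are irradiated immunodeficient B-NDG hosts given blood progenitors made in culture from iR9 pluripotent stem cells (the labels say ESC/iPSC). These stem cells carry Runx1 and Hoxa9 at the Rosa26 locus under doxycycline control, so both libraries share that transgene and there was no library from ordinary T cells. One library came from the thymus and the other from the spleen, each from 15000 sorted CD4 or CD8 single-positive cells of the donor mark CD45.2. The study describes the cells of both tissues as naïve, but its accounts of the gates differ: a CD62L+CD44- gate is named for both tissues in one place and for the spleen alone in the detailed methods, where the thymus gate takes out other lineages and TCRγδ cells. With 1 library each, tissue and library cannot be told apart, and no test was made between the tissues. How many hosts were pooled, and whether both libraries came from the same ones, is not given in the sources used here.

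A TCRα gene is made by joining a V gene to a J gene, and the join can be made again on the same chromosome. Early rounds join V genes near the J array to its 5′ J genes, and each later round uses V genes farther upstream and J genes farther downstream, toward the constant gene TRAC. TRAJ numbers fall along this direction, so that TRAJ61 lies next to the V genes and TRAJ1 next to TRAC. TRAV1 has an added interest, because its join to TRAJ33 forms the invariant chain of mucosal-associated invariant T (MAIT) cells in the mouse.

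In the GENCODE vM21 annotation of GRCm38, Trav1 occupied chr14:52427928-52428876 and Trav2 chr14:52567198-52568051, both on the plus strand and each with 2 exons. They were the first and the second of 128 annotated V genes of the locus. TRAV1 ended 1726 kb and TRAV2 1587 kb before the start of TRAJ61, and the whole array from TRAJ61 to TRAJ1 spanned 63.8 kb. The V exon of each gene supplies the first bases of the CDR3, the loop that crosses the V-J joint. These germline ends, from the first CDR3 codon to the last base of the V exon, are the yardstick for the joints shown next.
TRAV1 germline end: tgtgctgtgaggga
TRAV2 germline end: tgcattgtgactgaca

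The clonotypes with most reads show what the joints looked like. For each V gene and tissue the 2 productive clonotypes (in frame, without a stop codon) and the 1 out-of-frame clonotype with most reads are given, and TRAV2 had no out-of-frame clonotype in the spleen. CDR3 sequences run 5′ to 3′, and capitals mark bases inserted between the aligned ends of V and J.
Thymus TRAV1-TRAJ24, productive, 364 reads: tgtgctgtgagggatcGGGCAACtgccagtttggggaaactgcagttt
Thymus TRAV1-TRAJ16, productive, 222 reads: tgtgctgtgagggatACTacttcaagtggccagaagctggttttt
Thymus TRAV1-TRAJ17, out of frame, 227 reads: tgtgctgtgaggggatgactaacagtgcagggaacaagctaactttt
Spleen TRAV1-TRAJ35, productive, 360 reads: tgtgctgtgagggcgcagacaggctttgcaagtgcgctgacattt
Spleen TRAV1-TRAJ13, productive, 350 reads: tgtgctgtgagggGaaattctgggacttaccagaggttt
Spleen TRAV1-TRAJ22, out of frame, 72 reads: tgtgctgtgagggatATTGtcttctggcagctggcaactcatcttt
Thymus TRAV2-TRAJ22, productive, 277 reads: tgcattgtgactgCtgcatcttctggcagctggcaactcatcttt
Thymus TRAV2-TRAJ30, productive, 209 reads: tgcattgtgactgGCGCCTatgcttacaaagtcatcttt
Thymus TRAV2-TRAJ4, out of frame, 31 reads: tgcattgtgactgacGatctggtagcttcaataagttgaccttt
Spleen TRAV2-TRAJ17, productive, 168 reads: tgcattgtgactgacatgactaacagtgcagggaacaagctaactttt
Spleen TRAV2-TRAJ26, productive, 63 reads: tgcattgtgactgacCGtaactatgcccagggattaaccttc

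Both genes were rarely used. Together they made up 0.476% of TCRα clonotypes in the thymus (29 of 6089, 95% Wilson interval 0.332 to 0.683%) and 0.292% in the spleen (28 of 9583, 0.202 to 0.422%). TRAV1 alone held 0.279% in the thymus and 0.198% in the spleen, and TRAV2 0.197% and 0.0939%. By number of clonotypes TRAV1 ranked 89 and TRAV2 99 among 118 V genes in the thymus, and 104 and 108 among 121 in the spleen. The median V gene had 39.5 clonotypes in the thymus and 58 in the spleen. These intervals, and those that follow, cover counting error only.

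In reads, TRAV1 took 1995 of the 918063 TCRα reads from thymus and 1956 of the 1820314 from spleen, while TRAV2 took 856 and 455. Both genes combined thus took 0.311% of TCRα reads from thymus and 0.132% of those from spleen. Reads are not independent molecules, and whether molecular identifiers were used is not given in the sources used here. No clonotype of either gene was dominant, since the one with most reads ranked 387 in the thymus (TRAV1-TRAJ24) and 1012 in the spleen (TRAV1-TRAJ35). The median was 66 reads per clonotype in the thymus and 47 in the spleen, against 84 and 103 for clonotypes of all other V genes.

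**Figure D1:**
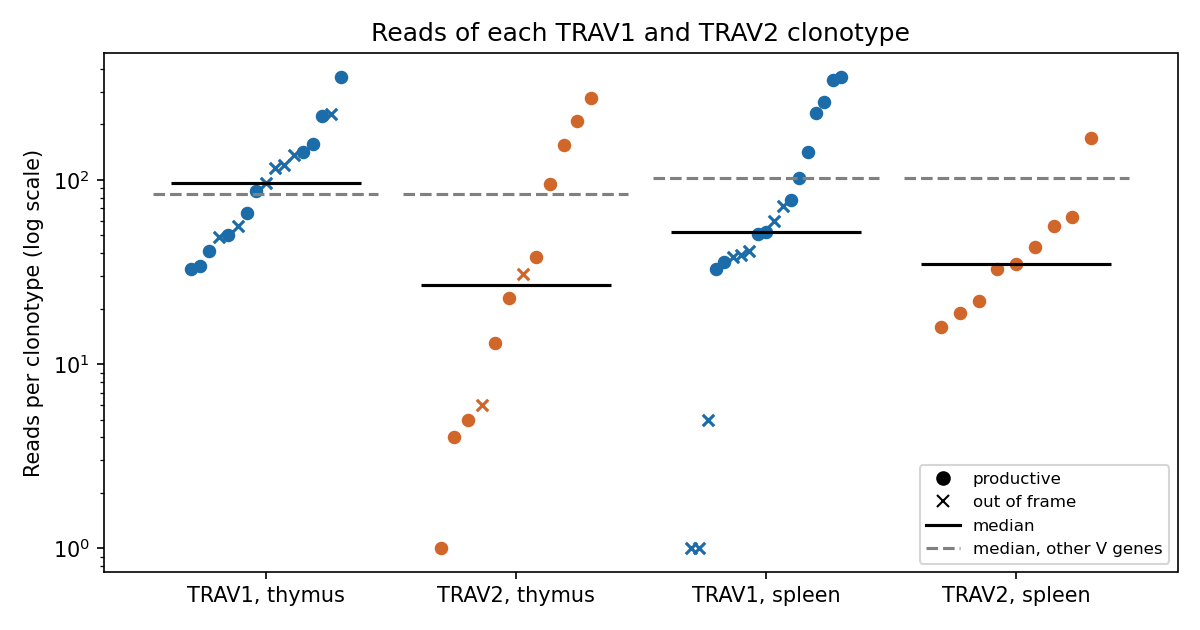
Reads of each TRAV1 (blue) and TRAV2 (orange) clonotype on a log axis, with circles for productive and crosses for out-of-frame clonotypes; clonotypes are spread sideways by reads, black lines are medians and dashed lines the median over clonotypes of all other V genes in that tissue. No clonotype exceeds 364 reads, and 7 of the 57 lie below 10 reads.

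The TRAJ partners lay in the middle and at the 3′ end of the array. TRAV1 was joined to TRAJ7 through TRAJ34 in the thymus and to TRAJ4 through TRAJ37 in the spleen. TRAV2 was joined to TRAJ4 through TRAJ43 in the thymus and to TRAJ4 through TRAJ26 in the spleen. The mean TRAJ number of TRAV1 was 21.5 ± 7.52 (SD over 17 clonotypes) in the thymus and 23 ± 10.3 (SD over 19) in the spleen. That of TRAV2 was 24.1 ± 11.5 (SD over 12) and 16.8 ± 8.97 (SD over 9), higher than TRAV1 in the thymus and lower in the spleen. These SDs describe the spread of single clonotypes and not the error of a mean. The means were not tested against each other.

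**Figure D2:**
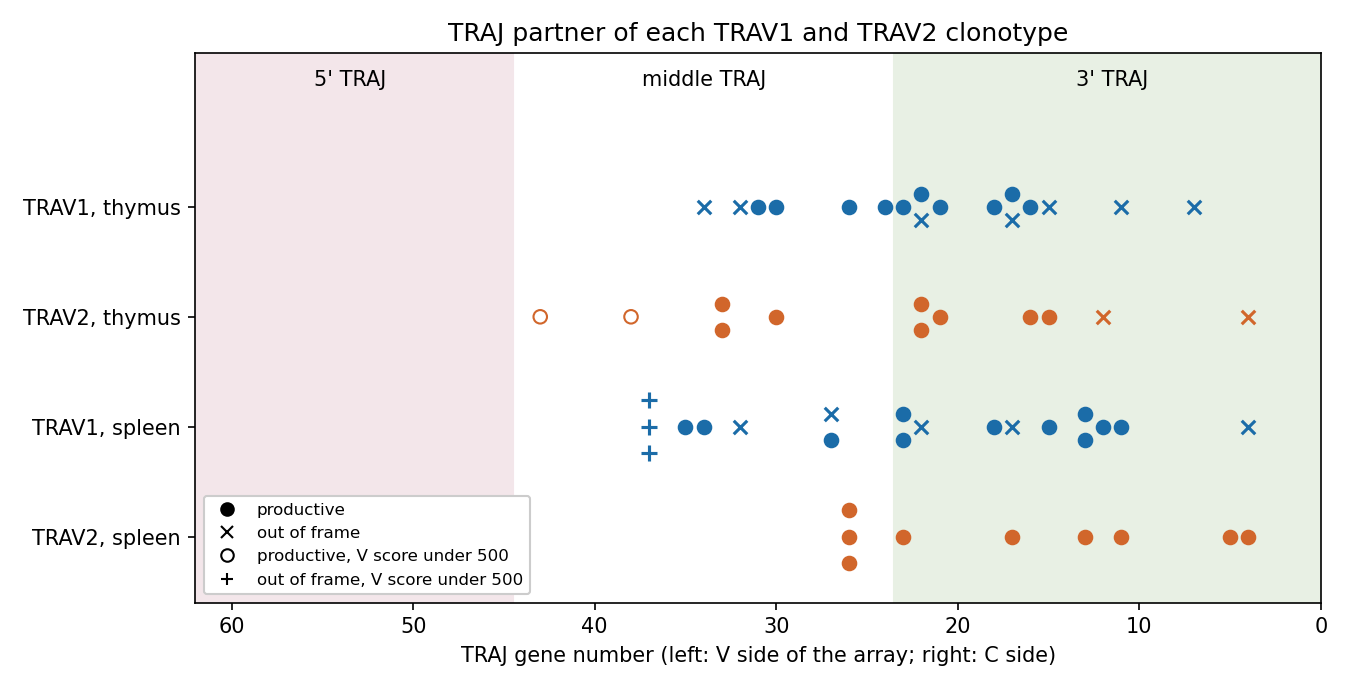
TRAJ number of every TRAV1 and TRAV2 clonotype by tissue, on an axis that runs from the V side of the J array (left) to the C side (right); filled circles are productive, crosses out of frame, and open circles or plus signs mark the 5 clonotypes with a V alignment score under 500. The shaded zone of the 5′ TRAJ genes (TRAJ45 and higher) holds no point, and 35 of 57 points lie in the zone of the 3′ TRAJ genes (TRAJ23 and lower).

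J genes were grouped into 3′ (TRAJ23 or a lower number), 5′ (TRAJ45 or a higher number) and middle ones. In the thymus 18 of 29 TRAV1 and TRAV2 clonotypes (62.1%, 44.0 to 77.3%) had a 3′ J gene, against 37.6% of 6060 clonotypes of all other V genes. This difference of 24.4 points (Newcombe 95% interval 6.34 to 39.7) passed the two-sided Fisher's exact test (p = 0.0111, adjusted p = 0.0444 by Benjamini-Hochberg over 14 tests). In the spleen the share was 17 of 28 (60.7%, 42.4 to 76.4%) against 38.4% of 9555, a difference of 22.3 points (3.98 to 38.1; Fisher's exact p = 0.0190, adjusted p = 0.0444). Each test sets clonotypes of 1 library against each other and treats them as independent, so it does not carry over to other mice. High 3′ shares were not particular to TRAV1 and TRAV2. The next V genes of the array, TRAV3-1, TRAV5-1 and TRAV6-1, had 63.6, 63.6 and 85.7% in the thymus. Their shares in the spleen were 59.1, 69.8 and 73.9%. Farther in, TRAV7-1 had 64% in the thymus and 52.8% in the spleen, and TRAV6-2 had 40% and 47.5%. Beyond these the shares varied from gene to gene. TRAV7D-3 had 71.8% in the thymus and 69.1% in the spleen, TRAV13N-2 64.9% and 65.2%, and TRAV13D-3 16.7% and 30%.

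No TRAV1 or TRAV2 clonotype carried a 5′ J gene. In the thymus this was 0 of 29, which allows a share of up to 10.3%, while 890 of 6060 other clonotypes (14.7%) had one (Fisher's exact p = 0.0162, adjusted p = 0.0444). In the spleen it was 0 of 28, which allows up to 10.7%, while 1427 of 9555 other clonotypes (14.9%) had one (Fisher's exact p = 0.0161, adjusted p = 0.0444). A lack of 5′ J genes was shared with some other V genes, since of those with at least 20 clonotypes 9 of 85 in the thymus and 11 of 103 in the spleen also had none. Neither TRAV1 nor TRAV2 alone reached 20. Of the next V genes of the array, TRAV3-1 (11 and 22 clonotypes in the thymus and spleen) and TRAV6-2 (40 and 40) had none in either tissue. TRAV6-1 had none in the thymus and 2.17% in the spleen. TRAV5-1 and TRAV7-1 had 4.55% and 2% in the thymus and none in the spleen.

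These differences from all other V genes stood close to the threshold. All had the same adjusted p by Fisher's exact test (0.0444), set by the largest of their p values (0.0190, 3′ J genes in the spleen). They therefore passed together and not as separate calls. The 14 tests also held the contrasts with TRAV17 to TRAV21, and an adjustment without those was not made. Among productive clonotypes alone the excess of 3′ J genes in the thymus was 15.4 points (Fisher's exact adjusted p = 0.406), and without clonotypes found in both tissues that of the spleen was 22.5 points (Fisher's exact adjusted p = 0.0519). The call on 5′ J genes was lost in both tissues under 6 settings, among them a minimum of 2 reads, with adjusted p values by Fisher's exact test up to 0.170 while the share stayed at 0.

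Against TRAV17 to TRAV21, toward the J end of the array, the contrast was wide. These genes lie 348 to 278 kb before TRAJ61, with a few TRDV genes and TRAV23 still closer to it. Their clonotypes had a 3′ J gene in 10 of 178 cases in the thymus (5.62%) and in 13 of 410 in the spleen (3.17%). TRAV1 and TRAV2 exceeded them by 56.5 points in the thymus (37.9 to 71.9; Fisher's exact adjusted p = 5.01e-11) and by 57.5 points in the spleen (39.1 to 73.3; Fisher's exact adjusted p = 1.57e-14). The difference passed the threshold under every setting tried. In turn 52.8% and 57.8% of the clonotypes of TRAV17 to TRAV21 had a 5′ J gene, and their TRAJ numbers averaged 43.99 (thymus) and 46.03 (spleen), against 22.6 and 21 for TRAV1 and TRAV2 together.

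**Figure D3:**
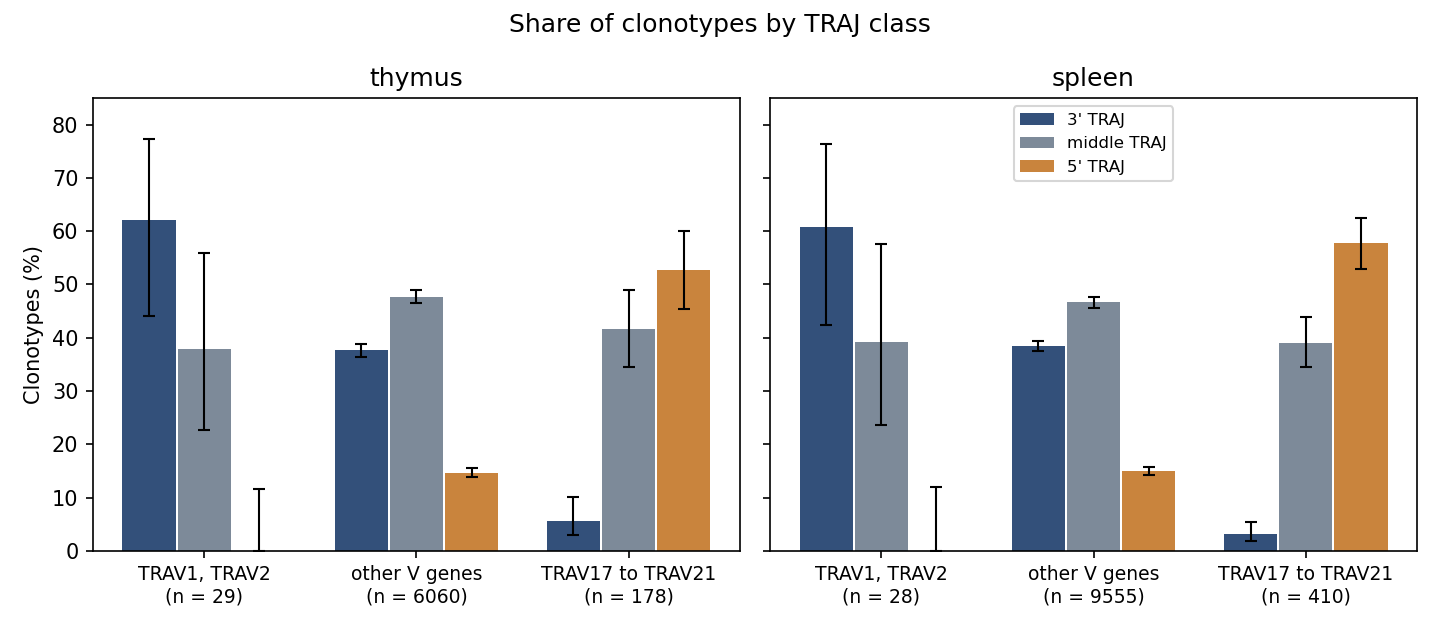
Percentage of clonotypes with a 3′, middle or 5′ TRAJ gene for TRAV1 and TRAV2, for all other V genes (TRAV17 to TRAV21 included) and for TRAV17 to TRAV21, by tissue; error bars are 95% Wilson intervals. TRAV1 and TRAV2 are highest in 3′ TRAJ (62.1 and 60.7%) with 0 in 5′ TRAJ, and TRAV17 to TRAV21 are highest in 5′ TRAJ (52.8 and 57.8%).

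TRAV1 and TRAV2 were not seen to differ from each other. In the thymus 11 of 17 TRAV1 and 7 of 12 TRAV2 clonotypes had a 3′ J gene, a difference of 6.37 points (-26.0 to 38.3; Fisher's exact adjusted p = 1). In the spleen the counts were 11 of 19 and 6 of 9, a difference of -8.77 points (-39.1 to 27.8; Fisher's exact adjusted p = 1). With so few clonotypes the intervals leave room for large differences in either direction.

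Within the 3′ part of the array the partners were spread thinly. Both V genes together used 25 J genes, and 13 of the 18 3′ J genes seen in any TCRα clonotype were among them, the others being TRAJ2, TRAJ3, TRAJ6, TRAJ9 and TRAJ20. Joins to the last stretch, TRAJ10 and lower, numbered 2 of 29 in the thymus (6.90%) and 3 of 28 in the spleen (10.7%), close to the 9.39% and 9.29% of other V genes. TRAJ11 to TRAJ23 held 16 in the thymus (55.2%) and 14 in the spleen (50%), against 28.2% and 29.1% of other V genes.

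The 3 partners with most clonotypes, ties ordered by reads, differed between the sets. TRAV1 in the thymus was joined most often to TRAJ17 (2 clonotypes, 268 reads), TRAJ22 (2 clonotypes, 162 reads) and TRAJ24 (1 clonotype, 364 reads). TRAV1 in the spleen had TRAJ37 (3 clonotypes, 7 reads), TRAJ13 (2 clonotypes, 580 reads) and TRAJ27 (2 clonotypes, 201 reads). Thus the 2 TRAJ13 clonotypes held 29.7% of the TRAV1 reads in the spleen, and the 3 TRAJ37 clonotypes 0.358%. TRAV2 in the thymus had TRAJ22 (2 clonotypes, 290 reads), TRAJ33 (2 clonotypes, 6 reads) and TRAJ30 (1 clonotype, 209 reads). TRAV2 in the spleen had TRAJ26 (3 clonotypes, 104 reads), TRAJ17 (1 clonotype, 168 reads) and TRAJ23 (1 clonotype, 56 reads). TRAV1 used 8 J genes in both tissues (TRAJ11, TRAJ15, TRAJ17, TRAJ18, TRAJ22, TRAJ23, TRAJ32 and TRAJ34), TRAV2 only TRAJ4, and no J gene occurred with both V genes in both tissues. For TRAV1 the thymus set had 17 clonotypes over 15 J genes and the spleen set 19 over 14. For TRAV2 they had 12 over 10 and 9 over 7. These are too few to read the overlap as a difference in J use, and overlap for other V genes was not computed.

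The highest TRAJ numbers came with the weakest V alignments. The V alignment score, which grows with the number of matching V bases, was 847.3 to 1234.6 in 52 of the clonotypes and under 500 in 5, which held 34 reads in all. Those 5 were the TRAV1-TRAJ37 clonotypes of the spleen (scores 141 to 155), TRAV2-TRAJ38 of the thymus (score 395.1, 23 reads) and TRAV2-TRAJ43 of the thymus (score 40, 4 reads, with 2 germline V bases at the start of its CDR3). They were the only clonotypes of either gene with a J gene above TRAJ35. Among the other 52, 35 (67.3%) had a 3′ J gene. The 3 TRAV1-TRAJ37 clonotypes had 5, 1 and 1 reads, and each of those with 1 read differed from the first by 1 base (T43A and C5T, positions counted from 1 at the 5′ end of the CDR3).

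The pair of the MAIT chain, TRAV1-TRAJ33, was not found in either library. Both libraries came from sorted CD4 or CD8 single-positive cells described as naïve, so cells outside those gates were not sampled. TRAJ33 itself was in use, with 116 clonotypes over 57 V genes in the thymus (1.91% of TCRα clonotypes) and 218 over 76 V genes in the spleen (2.27%). Among TRAV1 clonotypes it was 0 of 17 in the thymus, which allows a share of up to 17.6%, and 0 of 19 in the spleen, which allows up to 15.8%. Against other V genes this was no detectable difference (Fisher's exact adjusted p = 1 in both tissues), and at the share of TRAJ33 among all TCRα clonotypes 17 and 19 clonotypes would hold 0.324 and 0.432 such joins. TRAV2 did pair with TRAJ33 in the thymus, in 2 productive clonotypes with 5 and 1 reads that differed by 1 base (T40C).

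A non-productive TCRα transcript comes from a joint that lost the reading frame or holds a stop codon, and can persist beside a productive one on the other chromosome. In the thymus 20 of 29 clonotypes of TRAV1 and TRAV2 were productive (69.0%, 50.8 to 82.7%) against 74.7% for other V genes, a difference of -5.70 points (-23.9 to 8.10; Fisher's exact adjusted p = 1). In the spleen 20 of 28 were productive (71.4%, 52.9 to 84.7%) against 69.4%, a difference of 2.03 points (-16.5 to 15.4; Fisher's exact adjusted p = 1). By gene, TRAV1 was productive in 10 of 17 clonotypes in the thymus and 11 of 19 in the spleen, and TRAV2 in 10 of 12 and 9 of 9. All 17 non-productive clonotypes were out of frame. Productive clonotypes held 70.6% of the reads of TRAV1 and TRAV2 in the thymus and 89.3% in the spleen, against 84.8% and 85.6% for other V genes.

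At the joints most clonotypes lacked part of the germline V end. The median clonotype of either gene kept 13 germline V bases, of the 14 that TRAV1 or the 16 that TRAV2 can give. All of them were kept in 20 of 57 clonotypes, 15 of 36 for TRAV1 and 5 of 21 for TRAV2. Bases were counted as kept while they matched the germline end, so a matching inserted or J base is included. No base was inserted between the aligned ends in 20 clonotypes, and the other 37 had 1 to 7 inserted bases. Among productive clonotypes the share without insertion was 5 of 20 in the thymus (25%) against 31.8% for other V genes, and 8 of 20 in the spleen (40%) against 40.9% (Fisher's exact adjusted p = 1 in both). The intervals of these differences, -20.7 to 15.1 and -19.1 to 20.4 points, are wide.

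Opening of the hairpin at a cut gene end can leave P bases, which repeat that end as its reverse complement. Of the 15 TRAV1 clonotypes that kept the whole germline end, 12 went on with 1 to 4 bases of this kind, as in gggat and gggatc in the TRAV1-TRAJ16 and TRAV1-TRAJ24 joints shown above. The deposited alignment counted these bases as V, so they are in lower case and not among the inserted ones. It also counted as V some bases past the germline end that were not of this kind. There were 10 in TRAV1-TRAJ17 (227 reads) and 3 in TRAV1-TRAJ22 (96 reads) of the thymus, and 1 in TRAV1-TRAJ27 (141 reads) of the spleen. Those clonotypes stand among the ones without insertion. Of the 5 TRAV2 clonotypes with a whole germline end, 3 went on with at least 1 such base, none of them counted as V by the alignment. A single such base can also come from J or from insertion, so the counts describe letters and not their origin.

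The productive CDR3 of TRAV1 and TRAV2 measured 43.2 ± 6.19 nucleotides (SD over 20) in the thymus and 41.4 ± 3.72 (SD over 20) in the spleen, against means of 40.6 in both tissues for other V genes. The longest, TRAV1-TRAJ18 of the thymus with 60 nucleotides and 141 reads, carried 5 inserted bases.

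No TRAV1 or TRAV2 clonotype had the same CDR3 and V gene in both tissues, whereas 333 clonotypes of other V genes did, 5.50% of those in the thymus and 3.49% of those in the spleen. A count of 0 allows a share of up to 10.3% in the thymus and 10.7% in the spleen, so a difference was not detectable. In the thymus, 2 of 29 TRAV1 or TRAV2 clonotypes (6.90%) had a CDR3 that recurred in the spleen under another V gene alone, near the 365 of 6060 clonotypes (6.02%) of other V genes. TRAV1-TRAJ31 (V score 1115.7, 10 of 14 germline V bases kept) may be an example of a CDR3 that does not mark its V gene. The V score of its spleen counterpart was not checked. TRAV2-TRAJ43 cannot serve as an example, because its V alignment was weak (score 40, 4 reads, 2 of 16 germline V bases kept). It is nevertheless counted among the 2 of 29. Both are shown, and they were chosen after their values were seen.
Thymus TRAV1-TRAJ31, 156 reads (spleen TRAV9D-3-TRAJ31, 86 reads): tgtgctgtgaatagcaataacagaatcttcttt
Thymus TRAV2-TRAJ43, 4 reads (spleen TRAV7-5-TRAJ43, 24 reads): tgTGgcaataacaacaatgccccacgattt

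The J use of TRAV1 and TRAV2 was set beside that of the 84 other V genes with at least 20 clonotypes in each library. Averaged over both libraries, the mean TRAJ number was 22.3 for TRAV1 and 20.4 for TRAV2, while the 84 ranged from 18.5 to 46.1 with a median of 26.2. Of them 10 lay at or below TRAV1 and 2 at or below TRAV2. Without the clonotypes of a V score under 500, in all V genes, the means were 20.95 and 18.8, and of 82 other V genes 2 lay at or below TRAV1 and 1 at or below TRAV2, so the place of TRAV1 in this order rests in part on those few reads. TRAV1 and TRAV2 themselves had fewer than 20 clonotypes in each library. Among the 84, the 3 V genes with a mean nearest that of TRAV1 were TRAV7D-4 (22.25), TRAV9D-1 (22.25) and TRAV12N-3 (22.21). The single libraries were less alike. For TRAV1 the means were 21.5 (thymus) and 23 (spleen). They were 25.7 and 18.8 for TRAV7D-4, 22.5 and 21.98 for TRAV9D-1, and 19.9 and 24.6 for TRAV12N-3. Nearest TRAV2 among the 84 were TRAV5-1 (21.2), TRAV7D-3 (19.5) and TRAV13N-2 (21.4). For TRAV2 the means were 24.1 (thymus) and 16.8 (spleen). They were 22.98 and 19.3 for TRAV5-1, 18.3 and 20.8 for TRAV7D-3, and 21.6 and 21.3 for TRAV13N-2. TRAV9D-3 (20.6) lay nearer TRAV2 but was left out, with 15 clonotypes in the thymus library. TRAV5-1 lies 1532 kb before TRAJ61, close to TRAV2, whereas TRAV12N-3 and TRAV13N-2 lie 914 and 901 kb before it. This likeness is one of averages over 2 libraries and is a description.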

How the data were processed

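TCRα and TCRβ transcripts of 2 libraries, thymus and spleen, were amplified with the SMARTer Mouse TCR a/b Profiling Kit and sequenced on a MiSeq. The authors assembled clonotypes with MiXCR and deposited, for each, a read count, that count as a fraction of the library total, gene hits with scores and CDR3 sequences. The genome build, filters and use of molecular identifiers for these files are not given in the sources used here. Gene names rest on MiXCR's own gene library, and V genes of near-identical sequence can share reads (25.0% of the thymus clonotypes of other V genes had tied V hits, those of TRAV1 and TRAV2 none). The thymus library held 2700370 reads in 7732 clonotypes and the spleen library 4585403 in 11826, of which 918063 and 1820314 reads were TCRα.

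The counts as deposited were used, each clonotype once, with its first-listed V and J gene. The deposited fraction matched the count divided by the library total in every row and was not used further. Shares within a library were compared by two-sided Fisher's exact tests with Newcombe intervals, and p values were adjusted over 14 tests (Python 3.11.15, pandas 2.3.3, numpy 2.4.6, scipy 1.17.1). Wilson intervals and floors of 3 counts cover counting error only. The code was tested on simulated data. Germline ends and positions came from GENCODE vM21 (GRCm38), where all 122 V gene names matched.

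TRAV1, TRAV2 and the gene groups were chosen with earlier results of these data known. Named were, by rule, the 3 J partners with most clonotypes and, by reads, 2 productive and 1 non-productive clonotypes of each V gene and tissue, all TRAV1-TRAJ33 clonotypes, clonotypes found in both tissues, and the 3 V genes of nearest mean TRAJ number. Alternatives were read minimums of 2 and 10, tied V genes left out, merging of 1-nucleotide variants into clonotypes of 20 times the reads, productive clonotypes only, clonotypes of both tissues left out and boundaries at TRAJ30 and TRAJ40. A V score of at least 500 (also for the mean TRAJ numbers) and merging at 2 times the reads were chosen after seeing the data.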

Additional observations from a re-analysis of the deposited data

How the results depend on the processing

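Of 156 recomputed values 130 were classed as unchanged. For a tested difference this meant the same direction and side of the threshold, while shares, counts found in both tissues and mean TRAJ numbers had no threshold. The excess of 3′ J genes over TRAV17 to TRAV21 kept its direction and call under all 9 alternatives in each tissue, with an adjusted p of at most 1.13e-05 (Fisher's exact test) in the thymus. Against all other V genes, the 3′ excess in the thymus lost its call among productive clonotypes (15.4 points) and that in the spleen without clonotypes of both tissues (22.5 points). The 5′ deficit in the thymus and spleen lost its call with at least 2 reads (-14.5 and -14.6 points), with at least 10 reads (-14.4 and -14.5), among productive clonotypes (-14.9 and -15.3), without clonotypes of both tissues (-14.9 and -15.1), with a V score of at least 500 (-14.5 and -14.7) and with 1-nucleotide variants merged at 2 times the reads (-14.7 and -14.7). The cause was not tested; in the spleen without clonotypes of both tissues the unadjusted p values hardly moved (0.0160 for 5′ and 0.0185 for 3′ J genes by Fisher's exact test), and the adjusted ones rose as the thymus 5′ test went to an unadjusted p of 0.0256. Differences that never passed a test changed sign as follows. TRAV1 minus TRAV2 in 3′ J genes became -10.3 points in the thymus and 2.08 in the spleen with at least 10 reads, -5.29 and 2.08 with a V score of at least 500, and 6.06 in the spleen among productive clonotypes. The productive share in the spleen became -0.378 points without tied V genes, and the no-insertion share 0.974 points in the spleen without clonotypes of both tissues and 2.22 in the thymus over all clonotypes. The share of reads became 0.374% and 0.160% without tied V genes and 0.259% and 0.138% among productive clonotypes, in the thymus and spleen. Without tied V genes the share of clonotypes rose to 0.634% in the thymus and 0.394% in the spleen, though it was classed as unchanged. No paired analysis was possible because each tissue had 1 library.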
